A study of Homo sapiens with 6 samples.

Results

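AP-1 and immediate early genes are the 10 genes FOS, FOSB, FOSL1, JUN, JUNB, JUND, EGR1, ATF3, IER2 and DUSP1, among 12187 genes measured in this series. They were chosen by name, and their probes were taken from the signal table where a detection p below 0.01 was reached on at least 1 array. All 10 genes were kept, each with 1 probe, and each of these probes was detected on all 6 arrays. Of 12 probes for these genes the remaining 2, both for ATF3, were not detected on any array, with a lowest detection p of 0.0506.

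AP-1 is a transcription factor made of a Jun protein (JUN, JUNB or JUND) paired with another Jun protein, a Fos protein (FOS, FOSB, FOSL1) or a related leucine zipper protein such as ATF3. Most of these genes are immediate early genes: serum, growth factors or stress switch on their transcription through MAP kinases within minutes, with no new protein needed, and their mRNAs are soon degraded. In carcinoma cells AP-1 is known for driving genes of proliferation, invasion and inflammation, CXCL8 (interleukin 8) among them. EGR1 is a zinc finger factor of the same early response, IER2 a small nuclear protein, and DUSP1 a phosphatase that switches MAP kinases off again.

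Total RNA of 3 established human cell lines was hybridised after 2 weeks of treatment to 6 Illumina HumanHT-12 V4 bead arrays. The study lists HCT116 and COLO205 as cancer lines of the colon and OVCAR5 as one of the ovary. Each had 1 array of cells labelled vehicle and 1 of cells given imetelstat, a lipid-conjugated oligonucleotide that inhibits telomerase. No genotype was altered, and each line is a single established culture. HCT116 was grown in DMEM and the other lines in RPMI1640, all with fetal bovine serum, so that medium and line cannot be told apart. The labels call the control vehicle, the cell culture methods name a mismatch oligonucleotide, and the legend of the array experiment calls the control cells untreated. No source used here decides between them. With 1 array per line and agent there is no replicate within a line, and ratios within a line carry no p-value. In such bulk RNA, fewer cells that express a gene and less of its RNA per cell cannot be told apart. The signals are bead averages without background subtraction, given here as log2 after quantile normalization, so that differences of dim probes are understated.

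The line labels were set against marker genes before any comparison. Of 16 markers of colon epithelium 13 were measured, and 4 of these were detected on each array labelled HCT116 or COLO205 against 13 and 11 on the arrays labelled OVCAR5. Of 8 Müllerian and ovarian cancer markers 6 were measured, and 3 to 5 of these were detected per array. Among them MUC16 stood at 9.61 and 9.09 on the arrays labelled OVCAR5 and at 6.91 to 7.23 on the others. By limma MUC16 was higher in OVCAR5 than in both other lines, and MSLN higher than in COLO205. KLK6 and KLK7 were lower in OVCAR5 in both comparisons, and PAX8 and EMX2 passed in neither. CEACAM5, KRT20 and CDH17, which COLO205 cells are known to express, were not detected on the arrays labelled COLO205 and were detected on both labelled OVCAR5. The 4 colon markers detected on every array were KRT8, KRT18, EPCAM and CDX2. Of these CDX2 stood at 7.83 to 8.77 and did not differ by limma between OVCAR5 and either other line (limma adjusted p = 0.962 and 0.839). Over all genes the mean absolute log2 difference was 0.193 between HCT116 with imetelstat and COLO205 with vehicle, against 0.193 between the 2 arrays of HCT116. The other pairs of an HCT116 with a COLO205 array lay 0.214 to 0.265 apart, and the 2 COLO205 arrays 0.204. By the limma test described below, 0.73% of all genes were higher and 0.279% lower in HCT116 than in COLO205. For OVCAR5 against HCT116 the shares were 19.3% and 21.7%. Which cells each label names is thus in question and cannot be settled here. HCT116, COLO205 and OVCAR5 below mean the arrays so labelled. The mean signal per array was 359.8 on the COLO205 imetelstat array and 453.7 to 487.5 on the others.

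In the Fos family, FOS and FOSB were many-fold higher on the arrays labelled OVCAR5 than on all others, whereas FOSL1 (FRA1) was lowest there. Values are log2 signals in the order vehicle, then imetelstat. FOS stood at 8.60 and 8.69 in HCT116, at 8.68 and 9.07 in COLO205 and at 13.69 and 12.86 in OVCAR5. FOSB stood at 7.24 and 7.21 in HCT116, at 7.30 and 8.74 in COLO205 and at 11.65 and 10.81 in OVCAR5. For both genes the OVCAR5 arrays lay above the other 4 arrays with no overlap, and vehicle was the higher of the 2 OVCAR5 arrays. FOSB was near the dim end on 3 arrays: its unnormalized signal was 154.7 to 161.8 on both HCT116 arrays and the COLO205 vehicle array, where the array medians were 110.3 to 116.5. FOSL1 stood at 10.11 and 9.13 in HCT116, at 9.70 and 10.15 in COLO205 and at 8.74 and 8.58 in OVCAR5. The OVCAR5 arrays were thus the lowest for FOSL1, and the HCT116 and COLO205 arrays overlapped.

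In the Jun family, JUN was high on 3 arrays, and JUNB and JUND varied less than JUN. JUN stood at 10.12 and 8.83 in HCT116, at 8.62 and 9.22 in COLO205 and at 10.46 and 10.47 in OVCAR5. The HCT116 vehicle array thus lay near the OVCAR5 arrays, and the HCT116 imetelstat array near those labelled COLO205. JUNB, which can restrain JUN activity, stood at 8.98 and 8.43 in HCT116, at 8.66 and 8.31 in COLO205 and at 8.96 and 8.84 in OVCAR5. JUND, the Jun member that is expressed most steadily in resting and growing cells, stood at 12.96 and 12.78 in HCT116, at 12.31 and 12.33 in COLO205 and at 12.45 and 12.31 in OVCAR5. Both HCT116 arrays were the highest for JUND, and COLO205 and OVCAR5 overlapped.

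Among the remaining genes, EGR1 and DUSP1, like FOS, were highest on the OVCAR5 arrays. EGR1 stood at 11.02 and 10.70 in HCT116, at 10.69 and 10.93 in COLO205 and at 13.32 and 12.53 in OVCAR5. DUSP1 stood at 9.66 and 9.07 in HCT116, at 8.71 and 8.58 in COLO205 and at 13.17 and 12.90 in OVCAR5. EGR1 overlapped between HCT116 and COLO205, whereas for DUSP1 none of the 3 lines overlapped. ATF3, a stress-induced leucine zipper factor, stood at 9.83 and 8.87 in HCT116, at 8.35 and 9.22 in COLO205 and at 9.14 and 9.02 in OVCAR5. IER2 stood at 8.78 and 8.22 in HCT116, at 8.50 and 8.53 in COLO205 and at 8.66 and 8.75 in OVCAR5. For ATF3 and IER2 the range of HCT116 took in both OVCAR5 arrays, and no line stood apart.

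**Figure D1:**
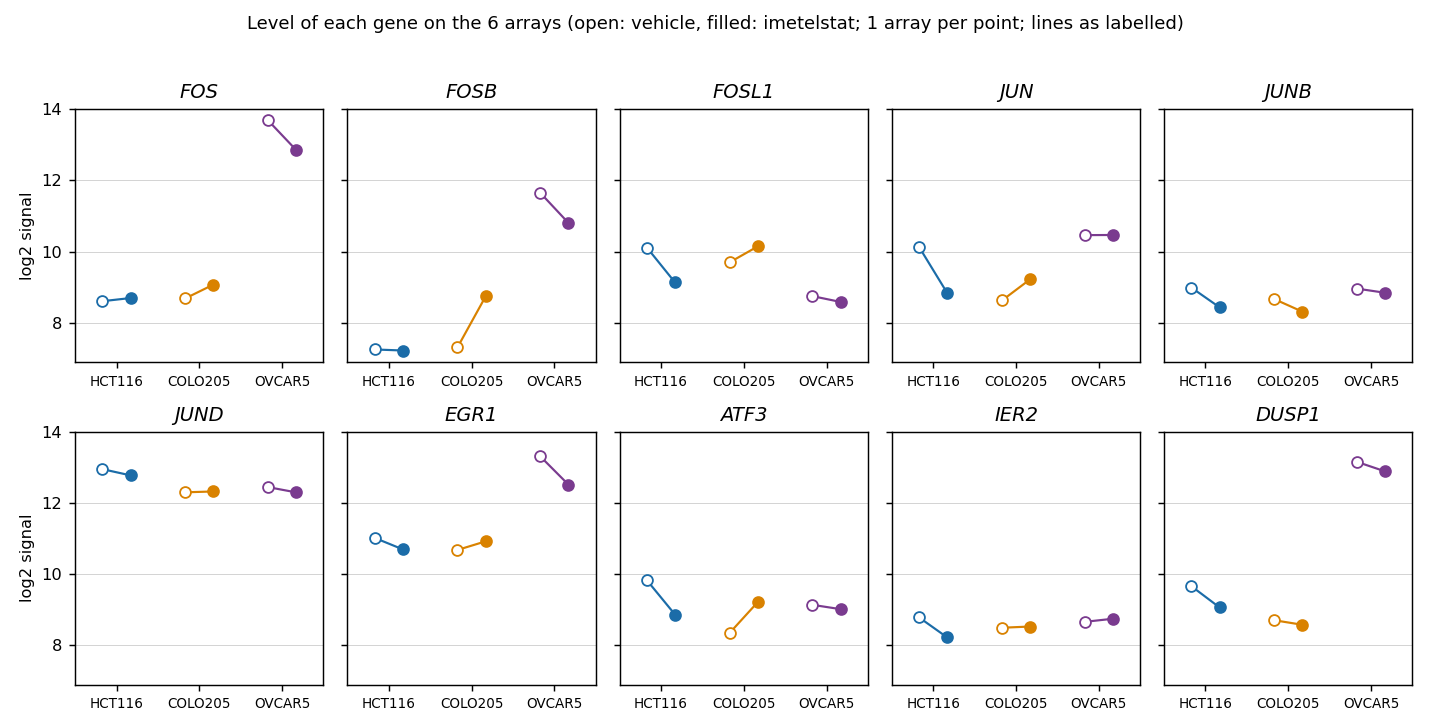
Log2 signal (y axis) of each of the 10 genes in the 3 lines as labelled (x axis), with 1 array per point, open for vehicle and filled for imetelstat, and a line joining the 2 arrays of a line. FOS, FOSB, EGR1 and DUSP1 were highest on both OVCAR5 arrays, and JUN ran from 8.62 to 10.47 with the HCT116 arrays at 10.12 and 8.83.

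Which lines differed in level was tested with limma over all 12187 genes, with line and agent as terms and Benjamini-Hochberg adjustment. The 2 arrays of a line were under different agents, so the error of this test is the disagreement of the agent difference between lines, and the test compares these cultures. Between OVCAR5 and HCT116, 5 of 10 genes were higher in OVCAR5 by this test, against 19.3% of all genes, and 2 were lower, against 21.7%. Between OVCAR5 and COLO205, 5 were higher, against 19.6% of all genes, and 1 was lower, against 22.2%. The higher genes were FOS, FOSB, JUN, EGR1 and DUSP1 in both comparisons, which share the OVCAR5 arrays. The median difference over the 10 genes was 0.59 against HCT116 and 0.98 against COLO205, where the medians of all genes were -0.04 and -0.04.

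FOS was 24.7-fold higher in OVCAR5 than in HCT116 (log2 difference 4.63, SE 0.25, limma adjusted p = 3.0e-07) and 21.1-fold higher than in COLO205 (4.40, SE 0.25, limma adjusted p = 4.1e-07). FOSB was 16-fold higher than in HCT116 (4.0, SE 0.39, limma adjusted p = 2.16e-05) and 9.26-fold higher than in COLO205 (3.21, SE 0.39, limma adjusted p = 9.35e-05). DUSP1 was 12.7-fold higher than in HCT116 (3.67, SE 0.16, limma adjusted p = 8.94e-08) and 20.9-fold higher than in COLO205 (4.39, SE 0.16, limma adjusted p = 2.45e-08). Each of these differences was larger than that between the 2 arrays of any line for the same gene. EGR1 was 4.17-fold higher than in HCT116 (2.06, SE 0.22, limma adjusted p = 3.87e-05) and 4.34-fold higher than in COLO205 (2.12, SE 0.22, limma adjusted p = 3.05e-05). FOSB moved most with the choices made. Leaving out 1 array of either line, its fold ran from 4.84 (without the COLO205 vehicle array) to 17.7 (without the COLO205 imetelstat array) against COLO205, with 5.41 and 15.8 without the OVCAR5 vehicle and imetelstat arrays. Against HCT116 it was 9.36 and 27.4 without those OVCAR5 arrays, and with normexp background correction it was 37.2 against HCT116 and 15.02 against COLO205. JUN was 2.92-fold higher than in COLO205 (1.54, SE 0.33, limma adjusted p = 0.00385; 1.90-fold and 4.49-fold without the COLO205 vehicle or imetelstat array) and 1.98-fold higher than in HCT116 (0.99, SE 0.33, limma adjusted p = 0.0364). The latter call rests on single arrays, since the JUN difference was 1.79 without the HCT116 vehicle array, 0.19 without the HCT116 imetelstat array (limma adjusted p = 0.593) and 0.81 without the OVCAR5 imetelstat array (0.104), and it was also lost under 5 of the other processing settings (limma adjusted p 0.0507 to 0.125).

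FOSL1 went the other way. It was 1.94-fold lower in OVCAR5 than in HCT116 (log2 difference -0.96, SE 0.27, limma adjusted p = 0.0149) and 2.39-fold lower than in COLO205 (-1.26, SE 0.27, limma adjusted p = 0.00338). The call against HCT116 was lost without the HCT116 vehicle array (-0.40, limma adjusted p = 0.241) and without a detection filter (limma adjusted p = 0.0576). JUND was 1.41-fold lower than in HCT116 (-0.49, SE 0.15, limma adjusted p = 0.0223), a call lost on leaving out any 1 of the 4 arrays of these lines (limma adjusted p 0.0675 to 0.157), with normexp background correction (0.106) and with median scaling (0.0551). JUNB, ATF3 and IER2 did not pass against either line. Their 95% intervals of the log2 difference from HCT116 were -0.16 to 0.55 for JUNB, -0.98 to 0.44 for ATF3 and -0.20 to 0.61 for IER2. From COLO205 they were 0.06 to 0.77 for JUNB (limma adjusted p = 0.0613), -0.42 to 1.00 for ATF3 and -0.21 to 0.60 for IER2. The ATF3 value turns on single arrays, at 0.40 without the HCT116 vehicle array and -0.94 without the HCT116 imetelstat array (limma adjusted p = 0.0235).

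Between HCT116 and COLO205, 0 of 10 genes passed in either direction by limma, against 0.73% of all genes higher and 0.279% lower in HCT116. The nearest were DUSP1, 1.65-fold higher in HCT116 (log2 difference 0.72, SE 0.16, limma adjusted p = 0.0791), and JUND, 1.47-fold higher (0.55, SE 0.15, limma adjusted p = 0.145). For EGR1 the 95% interval was -0.42 to 0.54, and for FOS it was -0.77 to 0.32.

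**Figure D2:**
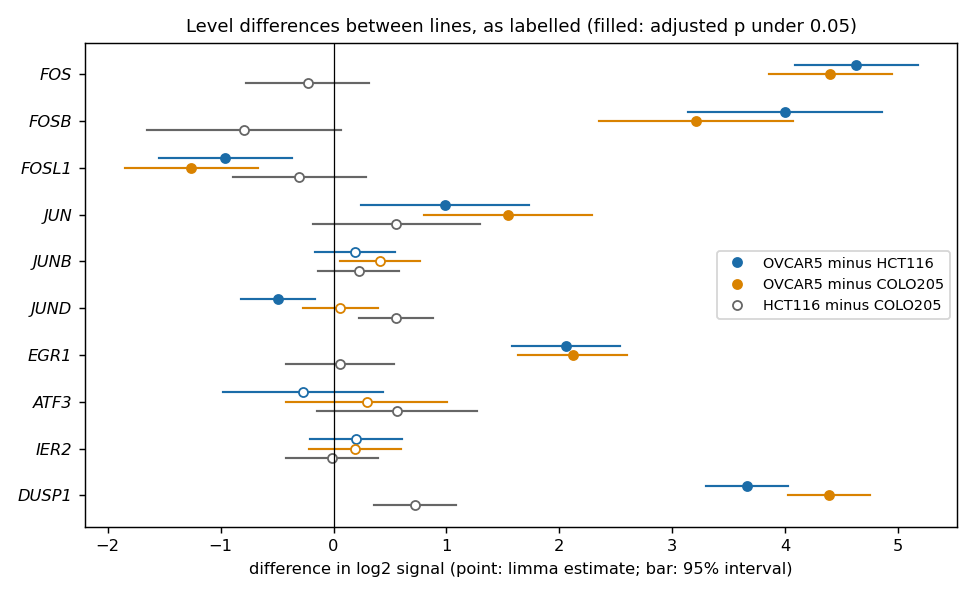
Difference in log2 signal between lines as labelled (x axis) for each gene (y axis), with the limma estimate as a point, filled where the adjusted p was under 0.05, and its 95% interval as a bar. FOS, FOSB, DUSP1 and EGR1 lay at 2.06 or more in both comparisons of OVCAR5, FOSL1 lay below 0, and no difference of HCT116 from COLO205 passed.

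The promoters of the 5 genes that were higher on the OVCAR5 arrays in both comparisons are shown to set their sequences beside each other. They are the 250 bases before the transcription start in RefSeq on GRCh38.p14, written 5′ to 3′ on the strand of the gene, with motif matches in capitals. FOS lies at chr14:75278578-75278827 on the plus strand, FOSB at chr19:45467746-45467995 (plus), EGR1 at chr5:138465229-138465478 (plus), DUSP1 at chr5:172771196-172771445 (minus) and JUN at chr1:58784048-58784297 (minus).
FOS: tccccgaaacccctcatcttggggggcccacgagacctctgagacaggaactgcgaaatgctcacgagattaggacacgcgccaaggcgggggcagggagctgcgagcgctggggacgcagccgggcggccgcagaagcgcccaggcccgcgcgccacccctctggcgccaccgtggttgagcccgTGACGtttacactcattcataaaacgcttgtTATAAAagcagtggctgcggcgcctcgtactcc
FOSB: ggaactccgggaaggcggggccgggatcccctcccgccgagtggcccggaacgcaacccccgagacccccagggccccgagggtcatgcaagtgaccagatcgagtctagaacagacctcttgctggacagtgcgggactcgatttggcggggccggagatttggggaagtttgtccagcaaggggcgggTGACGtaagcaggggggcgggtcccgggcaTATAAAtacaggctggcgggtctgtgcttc
EGR1: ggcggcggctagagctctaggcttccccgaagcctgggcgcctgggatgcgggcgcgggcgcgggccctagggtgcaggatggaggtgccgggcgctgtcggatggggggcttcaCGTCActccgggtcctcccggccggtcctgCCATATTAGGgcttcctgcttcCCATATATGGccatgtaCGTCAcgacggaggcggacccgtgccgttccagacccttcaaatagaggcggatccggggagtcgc
DUSP1: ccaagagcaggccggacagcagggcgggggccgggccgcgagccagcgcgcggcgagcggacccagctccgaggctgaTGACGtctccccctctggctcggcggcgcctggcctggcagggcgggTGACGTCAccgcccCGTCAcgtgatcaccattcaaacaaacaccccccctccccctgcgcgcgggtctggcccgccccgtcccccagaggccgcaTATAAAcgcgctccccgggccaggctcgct
JUN: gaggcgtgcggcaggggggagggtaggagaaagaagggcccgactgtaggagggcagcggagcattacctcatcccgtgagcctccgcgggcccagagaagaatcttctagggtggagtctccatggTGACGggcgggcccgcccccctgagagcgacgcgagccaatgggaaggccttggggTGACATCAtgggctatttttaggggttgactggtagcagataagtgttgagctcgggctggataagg

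The motifs were searched on both strands: TATAAA (the TATA box), TGACG (the core of the cyclic AMP response element, to which CREB and ATF proteins bind), TGACNTCA (an 8-base element bound by Jun and ATF dimers, which contains TGACG where N is G) and the CArG box of serum response factor. The TGACG motif was found in the window of 8 of 9 genes with a promoter in the table, ATF3 being the exception, against 21.2% of all 35116 promoters. It began 64 bases before the start in FOS and 60 bases before it in FOSB, and in both genes a TATAAA match followed, at 33 and 30 bases before the start. DUSP1 had 4 matches of TGACG, 2 of them on opposite strands within 1 TGACNTCA match that began 125 bases before the start. JUN held TGACNTCA with A as N, beginning 67 bases before the start, and ATF3 held it beginning 123 bases before the first of its 2 listed starts. JUND also held it, so that 4 genes did, against 6.87% of all promoters. TATAAA was found in FOS, FOSB, JUNB, DUSP1 and, far from the start, in the second promoter of ATF3, against 10.7% of all promoters. The CArG box was found in EGR1 alone, at 105 and 83 bases before the start, against 1.16% of all promoters; the well-known serum response element of FOS lies upstream of this window. FOSL1 had no entry. A match describes these letters and is not a binding site.

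**Figure D3:**
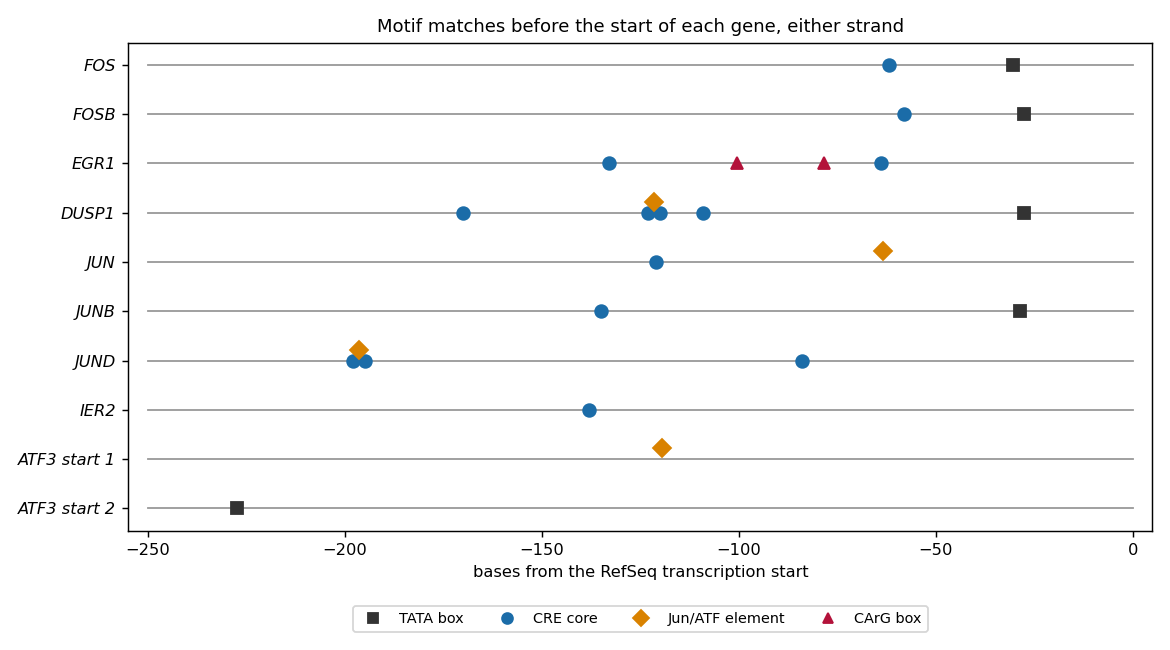
Matches of 4 motifs on either strand (symbols) by their distance in bases from the RefSeq start (x axis) in each promoter window of 250 bases (rows), the CRE core being TGACG and the Jun/ATF element TGACNTCA, whose symbol is raised so that overlapping matches can be seen. FOS and FOSB share TGACG at 64 and 60 bases and TATAAA at 33 and 30 bases before the start.

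With imetelstat, the members moved in different directions in the 3 lines, and none passed the test over the lines. In that limma test, with the line as a block, 0 of 10 genes and 0 of 12187 were called (0% of all genes), while 329 genes had an unadjusted p under 0.05, or 2.7%. The adjusted p of each of the 10 genes was 1.00, and over the alternatives it was 0.73 to 1.00. The unadjusted p was under 0.05 for 2 of the 10 genes, JUNB with a mean log2 difference of -0.34 (SE 0.13, 3 lines, limma adjusted p = 1.00) and DUSP1 with -0.33 (SE 0.13, limma adjusted p = 1.00). These were also the genes that were lower with imetelstat in 3 of 3 lines, a pattern whose share over all genes was not counted. In single lines 49% of all genes were lower in HCT116 and 50.8% in OVCAR5, and 48.9% were higher in COLO205. For the others the mean difference ran from -0.29 in EGR1 to 0.19 in FOSB, with standard errors of 0.12 to 0.32.

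In HCT116, JUN, FOSL1 and ATF3 were the genes farthest below vehicle. JUN was at 40.7% of vehicle (log2 ratio -1.30), the 55th lowest of 11010 genes detected in this line. FOSL1 was at 50.6% of vehicle (log2 ratio -0.98) and ATF3 at 51.2% (log2 ratio -0.97), just inside the 2-fold limit. The 2-fold limit was passed by 1 of 10 genes downwards, against 0.736% of all genes, and by 0 upwards, against 0.0908%. With normexp background correction 3 genes passed it downwards, a setting for which the share of all genes was not counted. DUSP1, IER2 and JUNB followed at 66.1%, 67.7% and 68.1% of vehicle (log2 ratios -0.60, -0.56 and -0.55). EGR1 was at 79.9% (-0.32), JUND at 88.5% (-0.18), FOSB at 98.0% (-0.03) and FOS at 106.4% (0.09). In all, 9 of 10 genes were lower with imetelstat at any size, against 49% of all genes, with a median log2 ratio of -0.56 against 0.01 over all genes. The middle 95% of all genes ran from -0.55 to 0.51, and 6 of the 10 genes lay outside it.

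In COLO205 most of the 10 genes lay above vehicle, with FOSB first. FOSB was 2.70-fold higher with imetelstat (log2 ratio 1.43), the 4th highest of 10445 genes, and the ratio was 2.27 on the log2 scale with normexp background correction. ATF3 was 1.83-fold higher (log2 ratio 0.87, the 28th highest) and JUN 1.51-fold higher (log2 ratio 0.60). The 2-fold limit was passed by 1 of 10 genes upwards, against 0.134% of all genes, and by 0 downwards, against 0.163%. FOSL1, FOS and EGR1 were 1.36-, 1.31- and 1.18-fold higher (log2 ratios 0.45, 0.39 and 0.24), IER2 and JUND stood at ratios of 0.03 and 0.02, and DUSP1 and JUNB were lower at -0.13 and -0.35. At any size 8 of 10 genes were higher, against 48.9% of all genes, but 5 of 10 with median scaling or no scaling of the arrays, where EGR1, JUND and IER2 turned below 0. With median scaling and with none, the log2 ratio was 0.046 and 5.6e-06 for FOS and 0.066 and 0.020 for FOSL1. For FOSB it was 1.15 and 1.11. Those settings moved the median of all genes in this line to -0.26 and -0.31, from -0.01, and relative to that median the members' median was 0.21 higher under both and 0.32 higher with quantile normalization. The COLO205 imetelstat array was also the one with the lowest mean signal, whose part in these ratios was not tested.

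In OVCAR5 the genes farthest below vehicle were FOSB, FOS and EGR1, which were also higher there than in the other lines. FOSB was at 55.6% of vehicle, FOS at 56.0% and EGR1 at 57.6% (log2 ratios -0.85, -0.84 and -0.79), which placed them 51st, 54th and 62nd from the lowest of 10538 genes. DUSP1 was at 83.1% (-0.27), although its level in OVCAR5 was 3.67 and 4.39 log2 above those of the other lines. The log2 ratios of FOSL1, JUND, ATF3 and JUNB were -0.16, -0.15, -0.12 and -0.12, and those of JUN and IER2 were 0.00 and 0.09. The 2-fold limit was passed by 0 of 10 genes, against 0.342% of all genes downwards and 0.256% upwards. At any size 8 of 10 genes were lower, against 50.8% of all genes, with a median of -0.16 against -0.01.

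**Figure D4:**
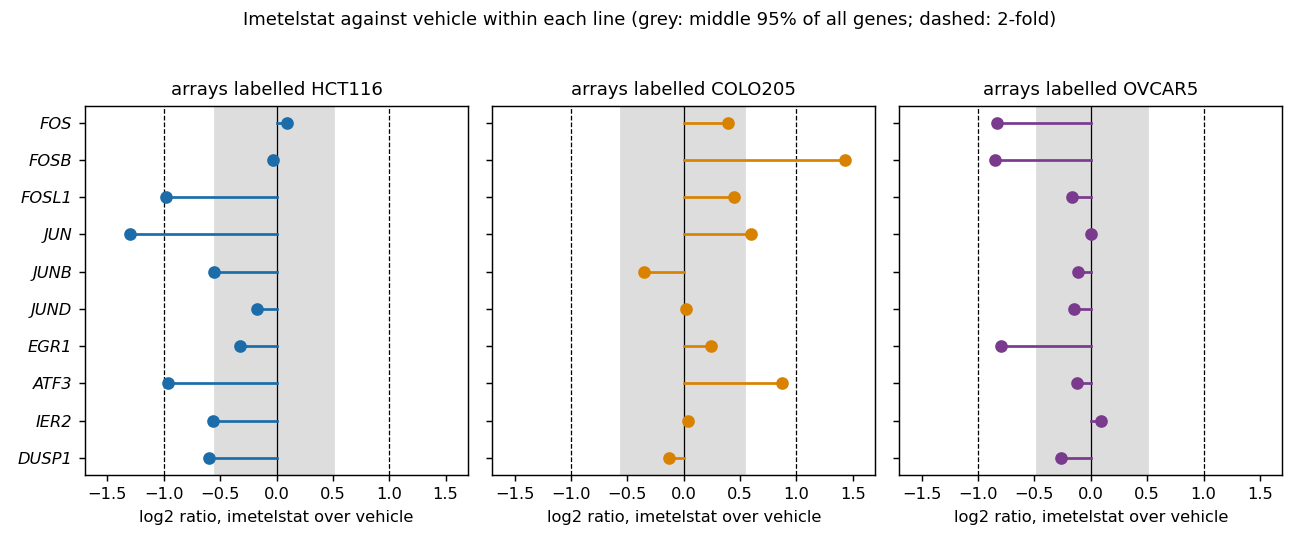
Log2 ratio of imetelstat over vehicle (x axis, 1 array over 1 array) for each gene (y axis) in the 3 lines as labelled, with the middle 95% of all genes in grey and the 2-fold limits dashed. JUN at -1.30 in HCT116 and FOSB at 1.43 in COLO205 lay past a dashed line, and FOS, FOSB and EGR1 lay below the grey band in OVCAR5.

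The arrays labelled HCT116 and COLO205 thus went opposite ways for many of these genes. FOSB, FOSL1, JUN, JUND, EGR1, ATF3 and IER2 were lower in HCT116 and higher in COLO205, 7 of 10 genes against 26.2% of the 10061 genes detected in both lines, and 4 of 10 with median scaling or none. JUN, FOSL1 and ATF3 stood at -1.30, -0.98 and -0.97 in HCT116 and at 0.60, 0.45 and 0.87 in COLO205. The COLO205 ratios of JUN, FOSL1 and ATF3 were 0.26, 0.066 and 0.54 with median scaling and 0.21, 0.020 and 0.49 with none. The vehicle arrays of the lines already differed in these genes, with JUN 1.5 and ATF3 1.48 log2 higher on the HCT116 vehicle array than on the COLO205 vehicle array. The imetelstat array of HCT116 was closer to the vehicle array of COLO205, at a mean absolute log2 difference of 0.275 over the 10 genes, than to its own vehicle array at 0.558. The remaining pairings of an HCT116 with a COLO205 array were 0.526 to 0.625 apart. What separates these 4 arrays besides line and agent was not tested.

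**Figure D5:**
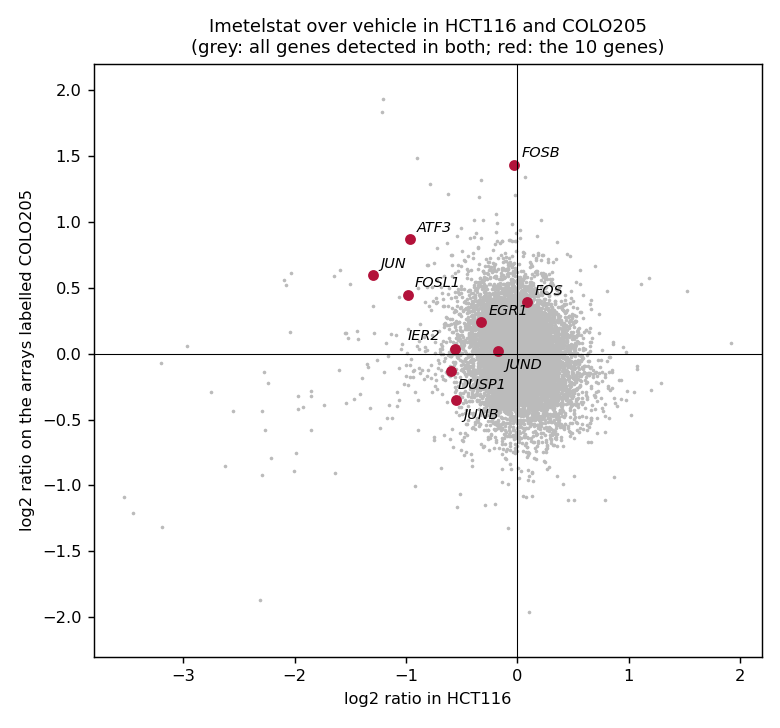
Log2 ratio of imetelstat over vehicle in HCT116 (x axis) and on the arrays labelled COLO205 (y axis) for all genes detected in both lines (grey) and the 10 genes (red, named). JUN, ATF3 and FOSL1 lay at the upper left, at -1.30, -0.97 and -0.98 on the x axis and at 0.60, 0.87 and 0.45 on the y axis, and JUNB and DUSP1 were below 0 on both axes.

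Other immediate early genes were described from a list of 26, of which 21 were measured. In HCT116, 18 of 20 detected ones were lower with imetelstat, against 49% of all genes (median log2 ratio -0.38), and in OVCAR5 17 of 21 were lower, against 50.8% (median -0.23). In COLO205 13 of 20 were higher, against 48.9% (median 0.28), but 9 of 20 with median scaling or none, where the list median was -0.10 and -0.15, or 0.16 above that of all genes in either setting. The only one past 2-fold was CCN1 (CYR61, a secreted matrix protein), at 230.1% of vehicle in COLO205 with log2 signals of 7.55 and 8.75. Like FOSB, CCN1 was dim in HCT116 (7.60 and 7.58) and bright in OVCAR5 (11.09 and 10.86). Between lines, 9 of 21 were higher in OVCAR5 than in HCT116, against 19.3% of all genes, and 8 higher than in COLO205, against 19.6%. KLF6, CCN1, CCN2, CSRNP1, RHOB, PPP1R15A, SIK1 and MCL1 were higher in both comparisons, and GADD45B against HCT116. In each comparison 4 of 21 were lower, near the 21.7% and 22.2% of all genes. The largest of these differences was in CCN2 (CTGF), at 5.18 log2 above HCT116 (limma adjusted p = 5.15e-08) and 4.56 above COLO205 (limma adjusted p = 1.22e-07). CCN1 was 3.39 and 2.83 above them. Those lower in both were the pseudokinase TRIB1, at -1.32 and -0.86, IER3 (-0.69 and -0.71) and IER5 (-1.24 and -0.86), with MYC lower against HCT116 and NR4A2 against COLO205.

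A list of 12 other AP-1 and related leucine zipper factors had 9 measured genes. None of them passed 2-fold with imetelstat in any line, and the medians were -0.06, 0.11 and -0.01 in HCT116, COLO205 and OVCAR5. Between lines 4 of 9 were higher in OVCAR5 than in HCT116 (19.3% of all genes) and 5 higher than in COLO205 (19.6%), and none was lower. These were JDP2, ATF2, MAFF and BATF in both comparisons, BATF being detected on the OVCAR5 arrays only, and BATF2 against COLO205, where it was not detected. MAFF was higher in OVCAR5 than in HCT116 and COLO205, by 1.39 and 1.59 log2 (limma adjusted p = 5.21e-05 and 1.97e-05). Its dimmer probes differed less. By one, MAFF stood at 7.91 and 7.76 in OVCAR5 and at 6.95 to 7.48 on the other arrays. By another, its 7.58 and 7.06 in OVCAR5 overlapped the 6.59 to 7.08 of the other arrays. FOSL2, the remaining Fos family gene, stood between 7.14 and 7.25 on all 6 arrays. Of the listed kinases and factors that act on AP-1 and early genes, 14 of 18 were measured, and 1 passed 2-fold. This was NAB1, a corepressor of EGR1, at 45.1% of vehicle in COLO205 (log2 ratio -1.15), with -0.29 in HCT116 and 0.25 in OVCAR5. Between lines 2 of 14 were lower in OVCAR5 than in HCT116 and 4 lower than in COLO205 (21.7% and 22.2% of all genes), with 0 and 1 higher. ELK1 and NAB2 were lower in both, MAP2K1 and MAP2K4 were lower than in COLO205, and RPS6KA1 was higher than in COLO205. NAB2, a relative of NAB1 that EGR1 induces, stood at log2 differences of -1.14 and -1.18 (limma adjusted p = 0.000489 and 0.000395), and EGR1 was higher there.

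Among 9 measured dual-specificity phosphatases besides DUSP1, DUSP5, a nuclear phosphatase of ERK, was the only one past 2-fold, at 47.8% of vehicle in HCT116 (log2 ratio -1.06). Its ratio was -0.11 in COLO205 and 0.35 in OVCAR5. Between lines 3 of 9 were higher in OVCAR5 in either comparison, against 19.3% and 19.6% of all genes. The 2 of 9 that were lower were near the 21.7% and 22.2% of all genes. DUSP3, DUSP5 and DUSP14 were higher in OVCAR5 by limma in both comparisons and DUSP2 and DUSP4 lower, with DUSP2 not detected on the OVCAR5 arrays.

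Of 20 listed AP-1 targets 14 were measured. CXCL8 stood at 11.99 and 9.24 in HCT116, at 8.94 and 8.65 in COLO205 and at 13.22 and 12.65 in OVCAR5, and thus at 14.9% of vehicle in HCT116 (log2 ratio -2.75, and -2.21 by its other detected probe). The matrix protease MMP7 was at 32.9% of vehicle in OVCAR5 (log2 ratio -1.60), from 11.08 to 9.48. PLAU, the urokinase protease, was at 398.0% of vehicle in OVCAR5 (1.99), from 10.28 to 12.27, and below vehicle in HCT116 (-0.74) and COLO205 (-0.65). At any size 8 of 12 detected targets were lower in HCT116, against 49% of all genes, and 5 of 13 in OVCAR5, against 50.8%, while 3 of 11 were higher in COLO205, against 48.9%. Over the lines limma called 0 genes of any of these lists. By limma CXCL8 was 2.32 log2 higher in OVCAR5 than in HCT116 and 4.14 higher than in COLO205 (limma adjusted p = 0.00188 and 4.06e-05). MMP7, IL6 and HBEGF were also higher in both comparisons, and PLAU was higher than in COLO205. In all, 4 of 14 were higher than in HCT116, against 19.3% of all genes, and 5 higher than in COLO205, against 19.6%. MMP9, TIMP1 and CD44 were lower in both, and these 3 of 14 were near the 21.7% and 22.2% of all genes. IL6 was detected on the OVCAR5 arrays only, and MMP9 was not detected on them.

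Genes whose level followed FOS or JUN most closely over the 6 arrays were sought among 3180 genes with a range of at least 1 log2. For FOS they were CEACAM5, GALC, TSPAN8, GSPT2 and ANXA11, with Pearson's r of 0.999 to 1.000 over 6 arrays. All of these were high on the 2 OVCAR5 arrays, lower with imetelstat there, and low on the other 4, so that r describes mainly that split. CEACAM5, the carcinoembryonic antigen, and TSPAN8 were among the colon markers. In OVCAR5 CEACAM5 stood at 10.03 and 9.46 and TSPAN8 at 11.55 and 10.68, and neither was detected on the other 4 arrays. Among the members EGR1 (r 0.986), FOSB (0.973) and DUSP1 (0.970) were closest to FOS. For JUN the closest were NFE2L3, IRF1, ZMIZ2, SQSTM1 and PSMB10, with r of 0.960 to 0.974. IRF1, an interferon-induced transcription factor, stood at 10.35 and 9.06 in HCT116, at 8.69 and 8.85 in COLO205 and at 10.68 and 10.82 in OVCAR5, so that its ratio in HCT116 of -1.29 matched the -1.30 of JUN. NFE2L3, a Cap'n'collar leucine zipper factor, had ratios of -1.13, 0.15 and 0.22 in HCT116, COLO205 and OVCAR5. These r values come from 6 arrays that share lines, and they carry no test.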

How the data were processed

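Gene expression was measured on 6 arrays, 1 for each of 3 cell lines and 2 agents, grouped by GEO's labels. The authors deposited signal intensities from GenomeStudio, which are linear averages over the beads of a probe, neither background-subtracted nor scaled between arrays. The deposited detection p-values rank each probe among the array's negative controls. The authors' processed intensities, quantile-normalized and linear, served as an alternative. The methods name limma with Benjamini-Hochberg adjustment; the normalization tool's version is not given in these sources.

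Signals of 47231 probes were brought to log2 and to equal quantiles (limma 3.58.1, R 4.3.3). Of these probes 30113 had 1 gene symbol in the platform annotation, 8 several and 17110 none. For 30074 probes the gene identifier was found in RefSeq and the symbol given there was used, whether or not it differed. Detection meant a detection p below 0.01; the 21099 probes that reached it on at least 1 array were kept, and the brightest kept probe stood for its gene, which left 12187 genes. Probes detected per array numbered 15627 to 17276. Precision is limited by the number of arrays. Within a line the single imetelstat array was set against the single vehicle array by size, with 2-fold as the limit, for genes detected on either array. Over the lines and between them limma's lmFit and eBayes were fitted on all 6 arrays with line and agent as terms, and p-values were adjusted over all genes at 0.05. The pairs are the lines; no replicate numbers are shared. The fit was tested on simulated data.

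The 10 genes, the lists and the tests were chosen with earlier results of these data known. From the other lists, apart from the line markers, genes at least 2-fold changed in a line (up to 4 a list) and genes past the limma test were named, and for FOS and JUN the 5 genes of highest Pearson's r; FOSL2 was named after its values were seen. Alternatives were normexp background correction with an offset of 16, median scaling, no scaling, an offset of 32, the authors' intensities, the mean of a gene's probes, other filters on detection, a 1.5-fold limit, no block, a variance trend, a plain paired test and leaving out each line or array. The scaling alternatives for the list of other immediate early genes were chosen after seeing the data. Promoters came from a RefSeq table of GRCh38.p14 that held 9 of the 10 genes, and motifs were searched and figures drawn with Python 3.11.15 and matplotlib 3.10.9.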

Additional observations from a re-analysis of the deposited data

Results flagged for a closer look

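For 3 genes the imetelstat ratio lay at least 1.5-fold below vehicle in 1 line and at least 1.5-fold above it in another, and with 1 array per line and agent none of these differences between lines was tested. FOSB differed most, with a log2 ratio 2.28 higher in COLO205 than in OVCAR5 (1.43 against -0.85). For JUN the log2 ratio in HCT116 minus that in COLO205 was -1.89 (-1.30 against 0.60). For ATF3 the same difference was -1.84 (-0.97 against 0.87). With median scaling or none the COLO205 ratios of JUN (0.26 and 0.21) and ATF3 (0.54 and 0.49) lay under 1.5-fold, so that FOSB alone of the 3 kept to this limit under those settings.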

How the results depend on the processing

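Of 270 ratios within a line under the alternatives, 249 moved by less than 1 SD of the ratios of all genes in that line. Many could not move, since each gene had 1 kept probe and the detection filters and the mean of probes left its ratios unchanged. The 21 that moved farther were all in COLO205. Only JUN in HCT116 and FOSB in COLO205 were past 2-fold, and neither changed sign. Among smaller ratios, EGR1, JUND and IER2 changed sign in COLO205 with median scaling or none, and JUN in OVCAR5 with no scaling. With normexp background correction 3 genes passed 2-fold downwards in HCT116 and 2 upwards in COLO205, and 1 (FOSL1) was lower in OVCAR5 than in HCT116. With a 1.5-fold limit 4 were lower in HCT116, 3 higher in COLO205 and 3 lower in OVCAR5. The share of all genes was not counted at this limit, with normexp background correction or under the other alternatives named below. The counts given for them thus have no background beside them. With median scaling and with no scaling 5 genes were higher in COLO205 and 4 went opposite ways in HCT116 and COLO205. Lower calls between OVCAR5 and HCT116 were 1 with median scaling (FOSL1) and 1 without a detection filter (JUND). JUNB passed between OVCAR5 and COLO205 with median scaling (0.58, limma adjusted p = 0.0412) and without scaling (0.63, 0.0373). The cause of these shifts was not tested.

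On leaving out each array in turn, the lower calls between OVCAR5 and HCT116 ranged from 0 to 2. Between HCT116 and COLO205 they ranged from 0 to 1 lower and from 0 to 1 higher; these were FOSB without the COLO205 vehicle array, JUN without the HCT116 imetelstat array, and DUSP1 without either OVCAR5 array. The higher calls of OVCAR5 stood at 4 to 5 against HCT116 and 5 to 6 against COLO205, the sixth being ATF3 without the COLO205 imetelstat array (1.00, limma adjusted p = 0.0103). The difference of OVCAR5 from HCT116 ranged from -0.94 to 0.40 in ATF3 and from -0.11 to 0.51 in IER2, and that from COLO205 from -0.41 to 1.00 in ATF3 and from -0.033 to 0.15 in JUND. A lone array left in a line was assumed to vary like the others. The share of all genes called was not counted in these fits, so their counts of calls have no background beside them.

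On leaving out each line, the mean change over the lines ranged from -0.37 to 0.24 in FOS, from -0.44 to 0.70 in FOSB, from -0.57 to 0.14 in FOSL1, from -0.65 to 0.30 in JUN, from -0.54 to 0.37 in ATF3 and from -0.26 to 0.061 in IER2. No alternative called any of the 10 genes over the lines by limma. No paired analysis by replicate number was possible because the groups share 1 number only.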
